A study of Mus musculus with 6 samples.

Results

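Lysosomes are the acidic organelles in which cells take apart lipids, sugars and proteins delivered by phagocytosis, endocytosis and autophagy. Soluble hydrolases do the cutting, membrane proteins shield the organelle and export the products, and a proton pump keeps the lumen acidic. Microglia, the resident macrophages of the brain, lean on this system to clear debris, and inherited loss of many of these enzymes causes storage disorders that affect the brain. The measurements below cover 32 lysosomal genes, chosen by name for their known roles: hydrolases and their activators, membrane proteins, 1 proton pump subunit and a pair of transcription factors that control lysosomal genes, with the cathepsins left out. The choice was made with earlier results of these data known, so counts over these genes are no independent test. All 32 were found among the 36528 gene IDs of the deposited tables, and all 32 passed the filter on low counts that 15585 genes passed.

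The series holds polyA RNA-seq of mouse microglia kept in vitro, with brain as the tissue of origin, in 3 groups of 2 libraries each. Untreated wild-type microglia served as the common control, the second group was untreated microglia in which Cop1 was knocked out, a group whose label also reads Loxp, and the third was wild-type microglia exposed to lipopolysaccharide (LPS), an outer membrane glycolipid of bacteria that innate immune receptors sense. Cop1 encodes a ubiquitin ligase that marks transcription factors for degradation. The labels give no LPS dose or duration, no Cre driver, no strain or age, and nothing that says whether libraries of a group came from separate cultures or animals, so that each p-value reflects only how far these libraries differ, a spread that may be technical.

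Counts per library ranged from 20568144 to 22553708, and the lowest count of any of the 32 genes in any library was 77. Cop1 itself was at 12.7 and 11.5 CPM (counts scaled to a common library size) in untreated wild type, 8.06 and 9.23 in Cop1 KO and 23.4 and 27.2 after LPS, and the knockout differed from wild type by −0.49 on the log2 scale (SE 0.11, adjusted p = 0.00016). With limma on log2(nRPKM + 1) and log2(nRPKM + 0.1) this difference was not called (−0.21, adjusted p = 0.0748, and −0.34, adjusted p = 0.0572). Which part of the gene was deleted is not given in the labels. Markers of microglia and macrophages were present in every library, and none of the 12 listed was at 0. The lowest count of any of them, in P2ry12 or Tmem119, was 160 to 184 in the untreated libraries, and 22 and 21, in Tmem119, after LPS. Their summed level was 8441 to 8473 CPM in untreated wild type, 12751 to 12824 in Cop1 KO and 6559.6 to 6626 after LPS. Markers of astrocytes were also present, with a summed level of 834 to 838 CPM over 11 genes in untreated wild type, 51.4 to 56.2 in Cop1 KO and 926 to 940.2 after LPS. Since these are bulk libraries, fewer cells of a type and less RNA per cell cannot be told apart.

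Levels were compared in CPM, scaled by TMM factors, which set the bulk of genes in each library to a common level. A gene was called when the Benjamini-Hochberg adjusted p of edgeR's quasi-likelihood test was below 0.05, over all genes tested. Both comparisons with wild type use the same 2 control libraries, so they are not independent, and each gene's values are given side by side.

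The 32 genes spanned a wide range of levels. On the authors' length-scaled nRPKM values, which allow genes to be ranked against each other, Psap stood highest in untreated wild type with 2045.0 ± 5.23 nRPKM (SD, n = 2). Grn, Lamp1, Cd68 and Hexa followed with 687 ± 6.83, 569.6 ± 2.06, 511 ± 12.7 and 383 ± 3.22 nRPKM (SD, n = 2). At the bottom stood Ids (9.62 ± 0.431 nRPKM), Arsa (9.29 ± 0.209) and Tfeb (9.14 ± 0.0165; SD, n = 2), and these neighbours did not differ beyond their spread. Psap, Grn, Lamp1 and Cd68 held ranks 1 to 4 in all 3 groups. Npc2 moved from rank 8 in untreated wild type to rank 6 in Cop1 KO and rank 5 after LPS, while Sgsh moved from rank 29 to rank 32 after LPS.

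**Figure D1:**
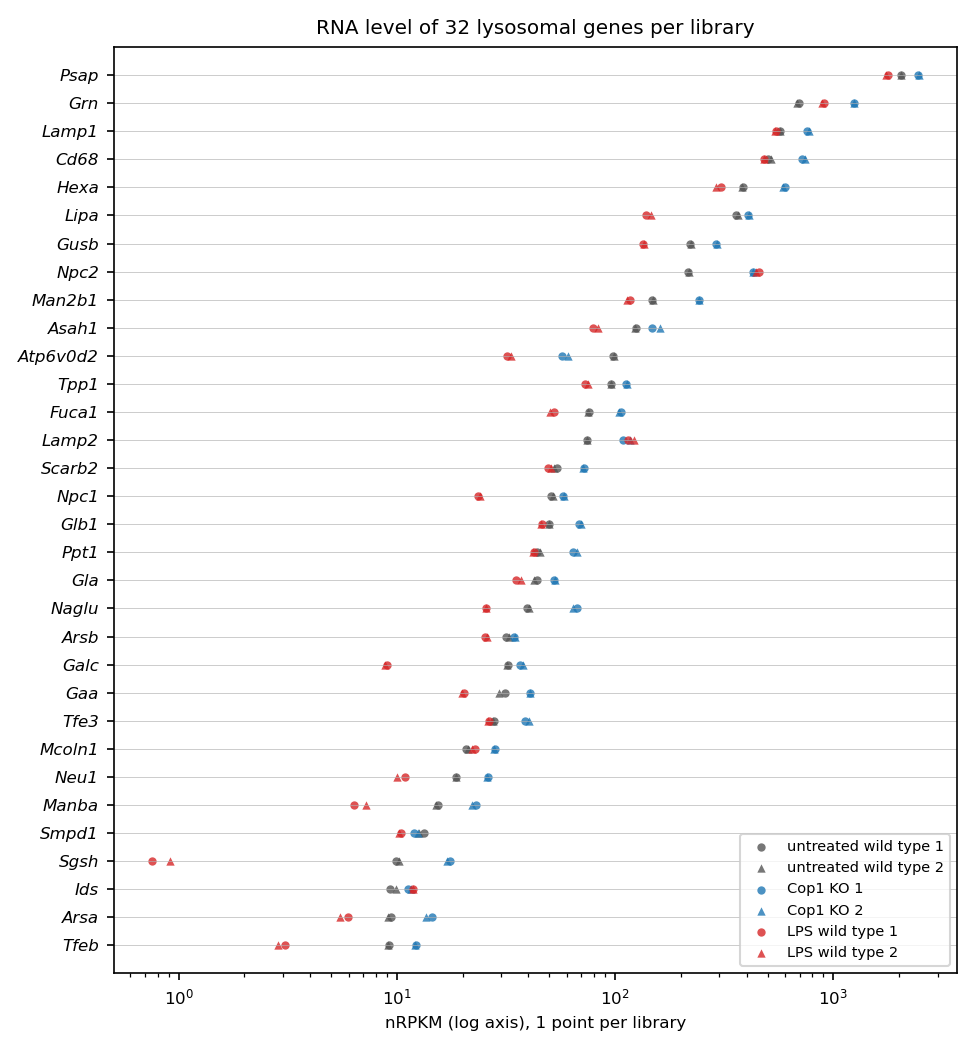
Level of each of the 32 genes in every library, in nRPKM on a log axis, with genes ordered by their level in untreated wild type and 1 point per library for untreated wild type, Cop1 KO and LPS-treated wild type. The 2 libraries of a group sit close together, Psap is highest in all 3 groups, and Sgsh has a mean of 0.832 nRPKM after LPS.

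Together the 32 genes made up 2.88% of all counts in both untreated wild-type libraries. Their share was 3.14% and 3.15% in Cop1 KO and 1.58% and 1.57% after LPS, so that the groups did not overlap. Such a share amounts to scaling by library size alone, without TMM factors. In TMM-scaled CPM their sum was 24206 to 24236 in untreated wild type, 30144 to 30230 in Cop1 KO and 19435 to 19683 after LPS. Taken gene by gene in these CPM, a different measure, 77.4% of all genes tested had wild-type and Cop1 KO libraries that did not overlap. For wild-type and LPS libraries it was 85.7%, and for Cop1 KO and LPS libraries 88.5%. Psap encodes the precursor of the saposins that help enzymes reach sphingolipids. It took 34.2% and 34.0% of the raw counts of the 32 genes in untreated wild type, 30.1% and 29.9% in Cop1 KO and 32.6% and 32.3% after LPS.

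In untreated Cop1 KO microglia, 27 of the 32 genes were higher than in untreated wild type, 2 were lower (Smpd1 and Atp6v0d2) and 3 were not called (Npc1, Lipa and Arsb). Of all genes tested, 58.4% were called in this comparison, 28.1% higher and 30.3% lower. The 4 that rose by at least 1.5-fold (7.94% of all genes) were Npc2 (log2 fold change 0.86), Grn (0.73), Sgsh (0.64) and Naglu (0.59), and Atp6v0d2 (−0.86) fell by as much (18.2% of all genes, and 26.1% in either direction). The median log2 fold change of the 32 genes was 0.29, against −0.01 over all genes tested. With scaling by library size alone, which places the median of all genes at −0.20, the split was 19 higher and 8 lower. Relative to the median of all genes, the median of the 32 stayed between 0.30 and 0.35 in every alternative run. A change of scaling shifts both medians about alike, so this range is no test of the scaling.

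After LPS, 27 of the 32 genes were lower than in untreated wild type, 4 were higher (Lamp2, Npc2, Ids and Grn, of which only Npc2 was also higher with scaling by library size alone) and Mcoln1 was not called. Of all genes tested, 73.7% were called, 30.2% higher and 43.4% lower. The decreases were largest in Sgsh (log2 fold change −3.77), Galc (−2.01), Tfeb (−1.79), Atp6v0d2 (−1.75) and Lipa (−1.51). The median log2 fold change of the 32 was −0.53, against −0.18 over all genes tested, and 14 genes were lower by at least 1.5-fold (29.4% of all genes) while 1 was higher by as much (20.4%; 49.8% in either direction). Scaling moved this comparison: by library size alone the median of all genes was −0.74, and with median-of-ratios factors it was −0.04. The median of the 32 relative to that of all genes ranged from −0.39 to −0.32 over the alternatives, and 5 of the 32 lay above the median of all genes in each of them. The median of all genes shifts with the scaling about as the 32 do, so neither value tests the scaling.

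Set directly against LPS-treated wild type, 29 of the 32 genes were higher in Cop1 KO and 3 were not called (Lamp2, Npc2 and Ids). Of all genes tested, 79.6% were called in this comparison, 39.9% higher and 39.6% lower. No gene of the 32 was called lower by edgeR's quasi-likelihood test, and none had an unadjusted p below 0.05 in that direction. DESeq2 called 1 lower and edgeR with median-of-ratios factors called 2. The median difference was 0.78 on the log2 scale, against 0.03 over all genes tested, and 21 genes were higher by at least 1.5-fold (27.8% of all genes, and 57.9% in either direction).

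**Figure D2:**
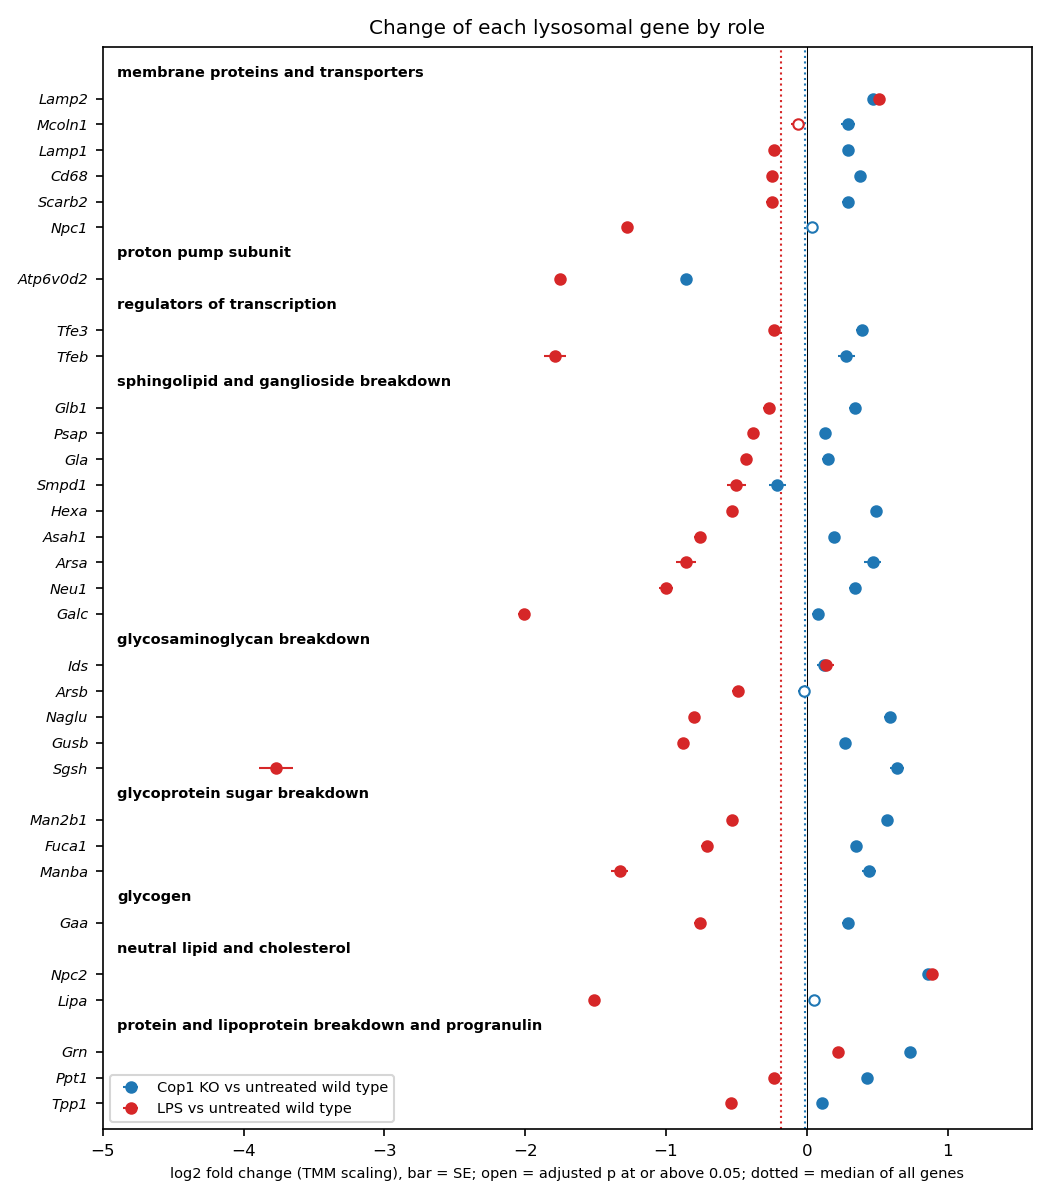
Log2 fold change of each of the 32 genes against untreated wild type (horizontal axis), grouped by role, with 1 point for Cop1 KO and 1 for LPS and bars of 1 SE; open points were not called, and dotted lines mark the median of all genes. Most Cop1 KO points lie just above 0 and most LPS points below it, with Sgsh farthest left at −3.77 and Npc2 at 0.86 and 0.89.

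**Figure D3:**
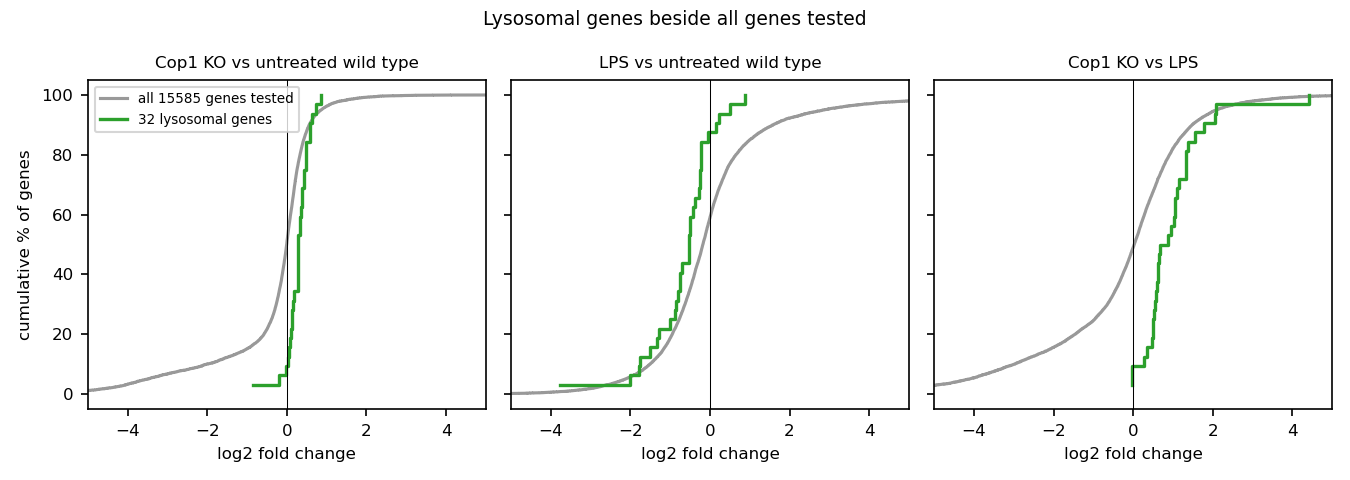
Cumulative percent of genes (vertical axis) against log2 fold change (horizontal axis) for the 32 genes (green) and all 15585 genes tested (grey), in each of the 3 comparisons. The median of the 32 is 0.29, −0.53 and 0.78 where that of all genes is −0.01, −0.18 and 0.03.

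Many lysosomal genes are known to be switched on by TFEB and TFE3, transcription factors that bind E-box sequences with the core CACGTG, often in lysosomal promoters as part of a longer palindrome that includes TCACGTGA. Promoter sequences from RefSeq (GRCm38.p6), reaching from 250 bases before to 50 bases after each annotated start, were matched for 29 of the 32 genes, all but Asah1, Npc1 and Atp6v0d2. CACGTG, which is its own reverse complement, occurred in the promoters of 8 of these 29 genes, and in 7.15% of all 32851 promoters of the same length (8.09% of genes). The longer TCACGTGA, each match of which contains the shorter core, occurred in Gla and Mcoln1 and in 0.974% of all promoters (1.12% of genes). Lamp1 carried 4 matches, starting 61, 45, 28 and 15 bases upstream of the annotated start, and Sgsh carried 1, starting 29 bases upstream. Matches lay farther off in Gaa, 140 bases upstream, and in Gla, 194 and 227 bases upstream and both inside TCACGTGA. The 100 bases before the start are printed for the other 6 of the 8 genes, whose matches lie within them, with each CACGTG in capitals. Their positions are Lamp1 chr8:13159061-13159160 (+ strand), Mcoln1 chr8:3500419-3500518 (+ strand), Glb1 chr9:114400978-114401077 (+ strand), Arsa chr15:89477425-89477524 (- strand), Naglu chr11:101069994-101070093 (+ strand) and Sgsh chr11:119355511-119355610 (- strand), each written 5′ to 3′ on the strand of the gene.
Lamp1: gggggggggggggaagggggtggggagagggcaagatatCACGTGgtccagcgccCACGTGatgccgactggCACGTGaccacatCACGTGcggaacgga
Mcoln1: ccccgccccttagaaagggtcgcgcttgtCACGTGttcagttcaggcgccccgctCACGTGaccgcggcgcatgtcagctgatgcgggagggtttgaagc
Glb1: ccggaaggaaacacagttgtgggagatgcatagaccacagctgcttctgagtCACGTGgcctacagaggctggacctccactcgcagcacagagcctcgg
Arsa: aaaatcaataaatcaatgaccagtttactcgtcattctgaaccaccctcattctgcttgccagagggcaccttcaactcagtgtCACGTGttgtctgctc
Naglu: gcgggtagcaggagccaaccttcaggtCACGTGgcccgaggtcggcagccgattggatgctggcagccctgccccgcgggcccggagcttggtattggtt
Sgsh: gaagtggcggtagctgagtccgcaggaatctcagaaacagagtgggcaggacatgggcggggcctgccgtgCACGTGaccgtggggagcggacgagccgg
The 8 genes with a match had median log2 fold changes of 0.32 in Cop1 KO and −0.59 after LPS, and the 21 without one had 0.34 and −0.50, given without a test. A match is a stretch of letters and was not measured as a binding site.

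**Figure D4:**
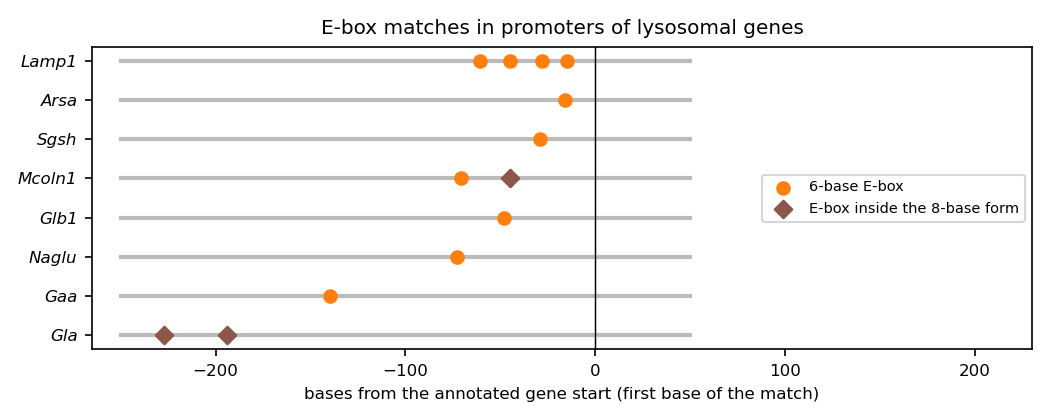
Position of each CACGTG match in the promoters of the 8 genes that hold one, in bases from the annotated start (0), with the searched window drawn as a grey line. Circles mark the 6-base core alone and diamonds the matches inside TCACGTGA; Lamp1 has 4 matches within 61 bases of the start.

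Both transcription factors were higher in Cop1 KO and lower after LPS under TMM. Tfeb (chromosome 17, 47737037 to 47792416 in GRCm38), the best known activator of lysosomal genes, was at 50.2 and 50.1 CPM in wild type without treatment, 61.3 and 60.7 in Cop1 KO and 15.0 and 13.9 after LPS. Both LPS libraries lay well below the other 4, and both knockout libraries above wild type. The change was 3.46-fold down after LPS (log2 fold change −1.79, SE 0.08, adjusted p = 3.4e-28) and 1.22-fold up in Cop1 KO (log2 fold change 0.28, SE 0.06, adjusted p = 2.3e-05), the latter not called with scaling by library size alone. Tfe3, its close relative, was at 168 and 167 CPM in wild type without treatment, 215 and 223 in Cop1 KO and 143 and 142 after LPS. Its rise in Cop1 KO was 0.39 on the log2 scale (SE 0.04, adjusted p = 1.1e-13), and its fall after LPS was small (log2 fold change −0.23, SE 0.04) and not called by DESeq2 or limma. The ratio of Tfeb to Tfe3 in nRPKM was 0.33 and 0.332 in untreated wild type, 0.315 and 0.302 in Cop1 KO and 0.116 and 0.109 after LPS, where the groups did not overlap.

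Of the 6 membrane proteins, 5 were higher in Cop1 KO, with Npc1 not called. After LPS 4 were lower and 1, Lamp2, was higher under TMM. The counts of each role stand beside the shares of all genes tested. These were 28.1% higher and 30.3% lower in Cop1 KO, and 30.2% higher and 43.4% lower after LPS. Lamp1 and Lamp2 are the main glycoproteins of the lysosomal membrane, and they parted after LPS. Lamp1 (chromosome 8, 13159161 to 13175338), whose promoter with 4 E-box cores is printed above, was at 1893 and 1903 CPM in wild type without treatment, 2306 and 2346 in Cop1 KO and 1628 and 1600.5 after LPS. Lamp2 (chromosome X, 38399647 to 38456460) was at 553 and 553 CPM in wild type without treatment, 744 and 793 in Cop1 KO and 764 and 809 after LPS. The knockout libraries were highest for Lamp1, while for Lamp2 the knockout and LPS libraries overlapped, above wild type. In Cop1 KO both rose (log2 fold change 0.29, SE 0.03, adjusted p = 1.5e-14 for Lamp1 and 0.47, SE 0.03, adjusted p = 3.5e-19 for Lamp2). After LPS, Lamp1 fell (log2 fold change −0.23, SE 0.03) and Lamp2 rose (log2 fold change 0.51, SE 0.03), although with scaling by library size alone the sign of Lamp2 turned (−0.06). The fall of Lamp1 was near the median of all genes (−0.18), from which it differed by −0.05. So were those of Tfe3 (−0.05 from that median), Ppt1 (−0.06), Cd68 (−0.07), Scarb2 (−0.08) and Glb1 (−0.10), while Lamp2 lay 0.69 above it. The ratio of Lamp1 to Lamp2 within a library, which no scaling of the library changes, was 7.66 and 7.70 in untreated wild type, 6.94 and 6.62 in Cop1 KO and 4.77 and 4.43 after LPS in nRPKM.

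Cd68, a heavily glycosylated protein of macrophage lysosomes often used as a marker of phagocytic microglia, was at 1298 and 1345 CPM in wild type without treatment, 1700.0 and 1738 in Cop1 KO and 1106 and 1114 after LPS. The 3 groups did not overlap, in the order Cop1 KO, untreated wild type, LPS (log2 fold change 0.38, SE 0.03, for the knockout and −0.25, SE 0.03, for LPS against wild type). Scarb2, which carries glucocerebrosidase to the lysosome, had log2 fold changes of 0.29 in the knockout (SE 0.04) and −0.25 with LPS (SE 0.04) in the same order. Mcoln1, a cation channel that releases calcium from lysosomes, rose in Cop1 KO (log2 fold change 0.29, SE 0.05, adjusted p = 9e-07), a call not made with scaling by library size alone. After LPS it was not called (log2 fold change −0.06, SE 0.05, adjusted p = 0.3), but it was called lower with scaling by library size alone (−0.62, adjusted p = 5.38e-16) and higher by limma at pseudocounts of 1 and 0.1 (0.10 in both, adjusted p = 0.0343 and 0.0362).

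NPC1 and NPC2 act one after the other: NPC2, a soluble protein of the lumen, hands cholesterol to NPC1 in the membrane, which passes it out of the lysosome. Their transcripts moved apart. Npc1 (chromosome 18, 12189694 to 12236506) was at 396 and 402 CPM in wild type without treatment, 409 and 414 in Cop1 KO and 163 and 166 after LPS. It was lower by 2.43-fold after LPS (log2 fold change −1.28, SE 0.03, adjusted p = 4.8e-37) and not called in Cop1 KO (log2 fold change 0.04, adjusted p = 0.25). Npc2 (chromosome 12, 84754559 to 84773112) was at 1036 and 1045 CPM in wild type without treatment, 1892 and 1877 in Cop1 KO and 1956 and 1898 after LPS. All 4 knockout and LPS libraries stood well above wild type, by 1.81-fold in Cop1 KO (log2 fold change 0.86, SE 0.03, adjusted p = 3.6e-33) and by 1.85-fold after LPS (log2 fold change 0.89, SE 0.03, adjusted p = 1.2e-34). It had the largest increase of the 32 in both comparisons under TMM. Both LPS libraries lay above both knockout libraries, with a log2 difference of −0.03 for Cop1 KO against LPS that was not called (SE 0.03, adjusted p = 0.26). Npc2 was called lower in Cop1 KO than after LPS by DESeq2 (−0.09, adjusted p = 0.00986), with median-of-ratios factors (−0.09, adjusted p = 0.00279) and without LPS library 2 (−0.05, adjusted p = 0.042), and higher with scaling by library size alone (0.34, adjusted p = 5.13e-17). The nRPKM ratio of Npc1 to Npc2 within a library was 0.237 and 0.239 in untreated wild type, 0.134 and 0.137 in Cop1 KO and 0.0517 and 0.0542 after LPS.

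Lipa encodes the acid lipase that frees cholesterol from the esters of ingested lipoproteins, the step before NPC2. It was at 1567 and 1596 CPM in wild type without treatment, 1632 and 1638 in Cop1 KO and 541 and 570.2 after LPS. After LPS it was 2.85-fold lower (log2 fold change −1.51, SE 0.03, adjusted p = 7.1e-44), and in Cop1 KO it was not called (log2 fold change 0.05, adjusted p = 0.14). DESeq2 and limma called Lipa and Npc1 higher in Cop1 KO, with log2 fold changes of 0.13 to 0.18, edgeR with median-of-ratios factors did so too, and scaling by library size alone called both lower (−0.15 for each). Without either LPS library, whose values enter only the shared estimate of spread and the scaling, Lipa was called higher (log2 fold change 0.05; adjusted p = 0.0229 and 0.0248).

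All 9 genes of sphingolipid and ganglioside breakdown were lower after LPS, and 8 of the 9 were higher in Cop1 KO, with Smpd1 lower. Galc (chromosome 12, 98202287 to 98259459), the enzyme that degrades the myelin lipid galactosylceramide, was at 228 and 226 CPM in wild type without treatment, 236 and 244 in Cop1 KO and 56.9 and 55.7 after LPS. The LPS libraries stood far below the others, and the knockout libraries just above wild type. Galc was 4.02-fold lower after LPS (log2 fold change −2.01, SE 0.04, adjusted p = 8.3e-42). Its rise in Cop1 KO was slight (log2 fold change 0.08, SE 0.04, adjusted p = 0.038) and was lost when untreated wild type library 1 (adjusted p = 0.127), untreated wild type library 2 (0.187) or Cop1 KO library 2 (0.255) was left out. Neu1, the sialidase that trims gangliosides and glycoproteins, was at 106 and 106 CPM in wild type without treatment, 136 and 134 in Cop1 KO and 55.3 and 50.7 after LPS, and was 2-fold lower after LPS (log2 fold change −1.0, SE 0.05, adjusted p = 3.4e-25).

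Hexa encodes the alpha subunit of beta-hexosaminidase A, which degrades ganglioside GM2. Its level was 1134 and 1121 CPM in wild type without treatment, 1609 and 1568 in Cop1 KO and 799 and 757 after LPS. The 3 groups did not overlap, and its log2 fold change was 0.49 (SE 0.03, adjusted p = 1.1e-21) in Cop1 KO and −0.53 (SE 0.03, adjusted p = 2.7e-23) after LPS. Arsa, the sulfatase that acts on myelin sulfatide, was at 48.7 and 47.2 CPM in wild type without treatment, 68.5 and 64.2 in Cop1 KO and 27.6 and 25.1 after LPS (log2 fold change 0.47, SE 0.06, and −0.86, SE 0.07). Psap, the highest of the 32, was at 8269 and 8238 CPM in wild type without treatment, 9066 and 9044 in Cop1 KO and 6417 and 6280.4 after LPS. Its rise in Cop1 KO was small (log2 fold change 0.13, SE 0.02) and turned to −0.06 with scaling by library size alone, as that of Galc turned to −0.11, and its fall after LPS was −0.38 (SE 0.02) on the log2 scale.

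The acid ceramidase gene Asah1 had log2 fold changes of 0.19 (SE 0.03) in Cop1 KO and −0.76 (SE 0.04) after LPS. Glb1, the beta-galactosidase that acts on ganglioside GM1, had 0.34 (SE 0.04) and −0.27 (SE 0.04), and Gla, the alpha-galactosidase deficient in Fabry disease, had 0.15 (SE 0.04) and −0.43 (SE 0.04). With scaling by library size alone the knockout values of Asah1 and Gla fell just below 0. Smpd1, the acid sphingomyelinase, went the other way from the rest of its group in Cop1 KO. It was at 47.5 and 45.0 CPM in wild type without treatment, 39.1 and 40.6 in Cop1 KO and 33.1 and 32.4 after LPS, and its change in Cop1 KO was −0.21 on the log2 scale (SE 0.06, adjusted p = 0.0024). That call was not made by DESeq2 (adjusted p = 0.23), with median-of-ratios factors (0.071), by limma or without untreated wild type library 1 (0.0597).

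Among the 5 genes of glycosaminoglycan breakdown, 4 were higher in Cop1 KO and 4 were lower after LPS. The largest change of all 32 was in Sgsh (chromosome 11, 119343489 to 119355510), the sulfamidase of heparan sulfate breakdown that is deficient in Sanfilippo syndrome type A. It was at 63.5 and 65.4 CPM in wild type without treatment, 102 and 99.2 in Cop1 KO and 4.30 and 5.19 after LPS. The LPS libraries stood far below the other 4, by 13.6-fold against the controls (log2 fold change −3.77, SE 0.12, adjusted p = 1.6e-39), while Cop1 KO was 1.56-fold above the controls (log2 fold change 0.64, SE 0.05, adjusted p = 2.2e-16). Of its exonic bases, 21.6% overlap Card14 on the opposite strand, and since the kit does not mark strand, reads from the 2 genes cannot be told apart there.

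Naglu, which acts on the same heparan sulfate chains, was at 144 and 147 CPM in wild type without treatment, 223 and 213 in Cop1 KO and 83.5 and 83.4 after LPS, with log2 fold changes of 0.59 (SE 0.04) and −0.80 (SE 0.04). Gusb, the beta-glucuronidase, was at 870.0 and 879.6 CPM in wild type without treatment, 1052 and 1060.4 in Cop1 KO and 473 and 479 after LPS (0.27, SE 0.03, and −0.88, SE 0.03, on the log2 scale). In both genes the 3 groups did not overlap, with Cop1 KO highest and LPS lowest. Ids, the iduronate sulfatase, was at 70.2 and 74.8 CPM in wild type without treatment, 77.8 and 79.6 in Cop1 KO and 79.9 and 79.8 after LPS. Its log2 fold changes were small (0.12, SE 0.05, adjusted p = 0.031 in Cop1 KO, and 0.14, SE 0.05, adjusted p = 0.011 after LPS). Both calls were lost without untreated wild type library 1, the knockout call also without Cop1 KO library 2, and both signs turned with scaling by library size alone. Arsb, a sulfatase of dermatan and chondroitin sulfate, was not called in Cop1 KO (log2 fold change −0.02, adjusted p = 0.67; −0.21 with scaling by library size alone and 0.11 by limma, both called) and was lower after LPS (−0.49, SE 0.04). Of its exonic bases, 39.9% overlap 2 genes on the opposite strand.

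The 3 genes that remove sugars from glycoproteins were all higher in Cop1 KO and all lower after LPS. Manba, the beta-mannosidase, changed most after LPS: it was at 86.0 and 84.0 CPM in wild type without treatment, 118 and 112 in Cop1 KO and 31.8 and 35.7 after LPS, a 2.52-fold decrease after LPS (log2 fold change −1.33, SE 0.06, adjusted p = 1.3e-27). Man2b1, the alpha-mannosidase, was at 1074 and 1087 CPM in wild type without treatment, 1616 and 1595 in Cop1 KO and 759 and 736 after LPS. Its increase in Cop1 KO (log2 fold change 0.57, SE 0.03, adjusted p = 7.7e-25) and its decrease after LPS (log2 fold change −0.53, SE 0.03) were of like size. Fuca1, the alpha-fucosidase, had log2 fold changes of 0.35 in the knockout (SE 0.03) and −0.71 with LPS (SE 0.04). Gaa, the acid glucosidase that degrades glycogen and is deficient in Pompe disease, had 0.29 (SE 0.04) and −0.76 (SE 0.04).

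Of the 3 genes for protein and lipoprotein breakdown and progranulin, all were higher in Cop1 KO, and after LPS 2 were lower. Grn (chromosome 11, 102430507 to 102436809) encodes progranulin, whose cleaved granulins act in lysosomes and whose loss causes frontotemporal dementia or neuronal ceroid lipofuscinosis. It was at 2386 and 2353 CPM in wild type without treatment, 3929.7 and 3925 in Cop1 KO and 2803 and 2732 after LPS. Both knockout libraries stood far above the other 4, with a 1.66-fold increase (log2 fold change 0.73, SE 0.02, adjusted p = 2.2e-31). The LPS libraries were between the other groups (log2 fold change 0.22, SE 0.02, adjusted p = 1.5e-11), but with scaling by library size alone they fell below wild type (−0.34). Tpp1, a peptidase, had log2 fold changes of 0.11 in the knockout (SE 0.03) and −0.54 with LPS (SE 0.03), and Ppt1, which removes palmitate from proteins, had 0.43 (SE 0.04) and −0.23 (SE 0.04). The sign of Tpp1 in Cop1 KO turned with scaling by library size alone (−0.09).

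Atp6v0d2 (chromosome 4, 19876838 to 19922566), a proton pump subunit made mainly by osteoclasts and some macrophages, was with Smpd1 one of the 2 genes lower in Cop1 KO. It was at 362 and 364 CPM in wild type without treatment, 194 and 205 in Cop1 KO and 106 and 110.0 after LPS. Every knockout library was below every wild-type library and above both LPS libraries, with a 1.82-fold decrease in Cop1 KO (log2 fold change −0.86, SE 0.03, adjusted p = 4.3e-28) and a 3.37-fold decrease after LPS (log2 fold change −1.75, SE 0.04, adjusted p = 3.1e-41).

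Beyond the 32, 63 other lysosomal genes were listed, also with earlier results of these data known. Their counts move with the scaling as those of all genes do. Each list is to be read beside the shares of all genes tested. In Cop1 KO 28.1% were called higher and 30.3% lower, and after LPS 30.2% higher and 43.4% lower. In 18 further subunits and accessory proteins of the proton pump, calls went in both directions. In Cop1 KO 5 were higher and 9 lower (median log2 fold change −0.10), and after LPS 6 were higher and 7 lower (median 0.04). The split after LPS is close to that of all genes. With scaling by library size alone the medians were −0.29 and −0.53. Atp6v0e2 was 5.44-fold lower in Cop1 KO (log2 fold change −2.44, SE 0.11, adjusted p = 8.5e-28), from 29.1 and 27.1 to 5.0 and 5.30 CPM. After LPS it changed little (−0.17, SE 0.08), a call lost with median-of-ratios factors, DESeq2, limma and only the 2 groups compared. Without untreated wild type library 1 the value was −0.13, and without LPS library 1 or 2 it was −0.17 or −0.18. The 11 astrocyte markers described below had medians of −3.96 in Cop1 KO and 0.12 after LPS. The part of cell composition in the change of Atp6v0e2 was not tested. The alternative a subunits parted. Atp6v0a1 was lower in Cop1 KO (−0.56, SE 0.03) and after LPS (−0.76, SE 0.03). Tcirg1, the a3 subunit, was higher in both (0.44, SE 0.03, and 0.89, SE 0.03). Atp6v0a2 was lower in Cop1 KO (−0.33, SE 0.1) and higher after LPS (0.76, SE 0.09). Within the pump's cytosolic part, Atp6v1d rose after LPS (1.23, SE 0.04) and Atp6v1c1 fell (−0.79, SE 0.04).

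Another 16 hydrolases and activators, listed to complete the enzymes, gave 11 higher and 1 lower in Cop1 KO (median 0.23) and 4 higher and 10 lower after LPS (median −0.40). With scaling by library size alone 5 were lower in Cop1 KO (median 0.04), and the median after LPS was −0.96. Idua, the iduronidase of glycosaminoglycan breakdown, was among the higher genes in Cop1 KO (log2 fold change 0.48, SE 0.04). Pla2g15, a lysosomal phospholipase, and Creg1, a lysosomal glycoprotein, were lower after LPS (−2.21, SE 0.04, and −1.13, SE 0.03). A pair of acid phosphatases rose after LPS: Acp2 by 1.99-fold (log2 fold change 0.99, SE 0.03, adjusted p = 2.6e-32) and Acp5, from 4.41 and 3.54 to 33.4 and 32 CPM, by 8.26-fold (log2 fold change 3.05, SE 0.13, adjusted p = 1.7e-30). Acp5 was the gene called lower in Cop1 KO (−1.61, SE 0.23).

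Of 13 other membrane proteins, 8 were higher and 2 lower in Cop1 KO (median 0.16), and 5 were higher and 7 lower after LPS (median −0.09). Scaling by library size alone gave 5 higher and 5 lower in Cop1 KO (median −0.03) and a median of −0.66 after LPS. None was called lower in Cop1 KO with median-of-ratios factors, by DESeq2, by limma at either pseudocount or without untreated wild type library 1, untreated wild type library 2 or Cop1 KO library 2, and 1 was without Cop1 KO library 1. The exporters of cystine and sialic acid, Ctns and Slc17a5, fell after LPS (log2 fold change −2.40, SE 0.09, adjusted p = 7.1e-32, and log2 fold change −1.97, SE 0.06, adjusted p = 3.9e-35). Clcn7, a chloride-proton exchanger, and Cln3, a membrane protein lost in a juvenile storage disorder, rose after LPS (1.43, SE 0.03, and 1.25, SE 0.04) and in Cop1 KO (0.60, SE 0.03, and 0.55, SE 0.04). Slc11a1, a metal ion transporter of phagosomes, had the largest increase of this list in Cop1 KO (0.65, SE 0.03).

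New hydrolases are tagged with mannose 6-phosphate and carried to lysosomes by sorting receptors. Of 6 such genes, 4 were higher and none lower in Cop1 KO by edgeR's test (median 0.24; none had an unadjusted p below 0.05 in the lower direction; 2 were higher and 2 lower with scaling by library size alone), and 1 was higher and 3 lower after LPS (median −0.18). The receptors themselves parted after LPS. M6pr, the cation-dependent mannose 6-phosphate receptor, was at 238 and 239 CPM in wild type without treatment, 281 and 279 in Cop1 KO and 708 and 736 after LPS, a 3.03-fold rise after LPS (log2 fold change 1.6, SE 0.03, adjusted p = 6.6e-43). Igf2r, the cation-independent receptor, fell (log2 fold change −0.61, SE 0.04, adjusted p = 1.3e-19), and so did Sort1, the sorting receptor sortilin (log2 fold change −2.20, SE 0.05, adjusted p = 6.1e-43).

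Of 10 listed genes of the MiT/TFE family and of mTORC1, the kinase complex that keeps TFEB out of the nucleus, 5 were higher and 3 lower in Cop1 KO (median 0.03), and 4 were higher and 5 lower after LPS (median −0.11). By library size alone, 2 were higher and 6 lower in Cop1 KO, without Cop1 KO library 2 only 3 were higher, and the median after LPS was −0.68. Mitf, a relative of Tfeb, rose after LPS where Tfeb fell (log2 fold change 1.07, SE 0.05, adjusted p = 6.3e-28). Flcn, a regulator of the Rag GTPases that hold mTORC1 at the lysosome, fell after LPS (log2 fold change −2.10, SE 0.06, adjusted p = 1.1e-37), as did Rragd, which encodes one of these GTPases (log2 fold change −2.57, SE 0.11, adjusted p = 2.7e-30). In Cop1 KO, Flcn was higher (0.40, SE 0.04) and Rragd lower (−0.50, SE 0.07).

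**Figure D5:**
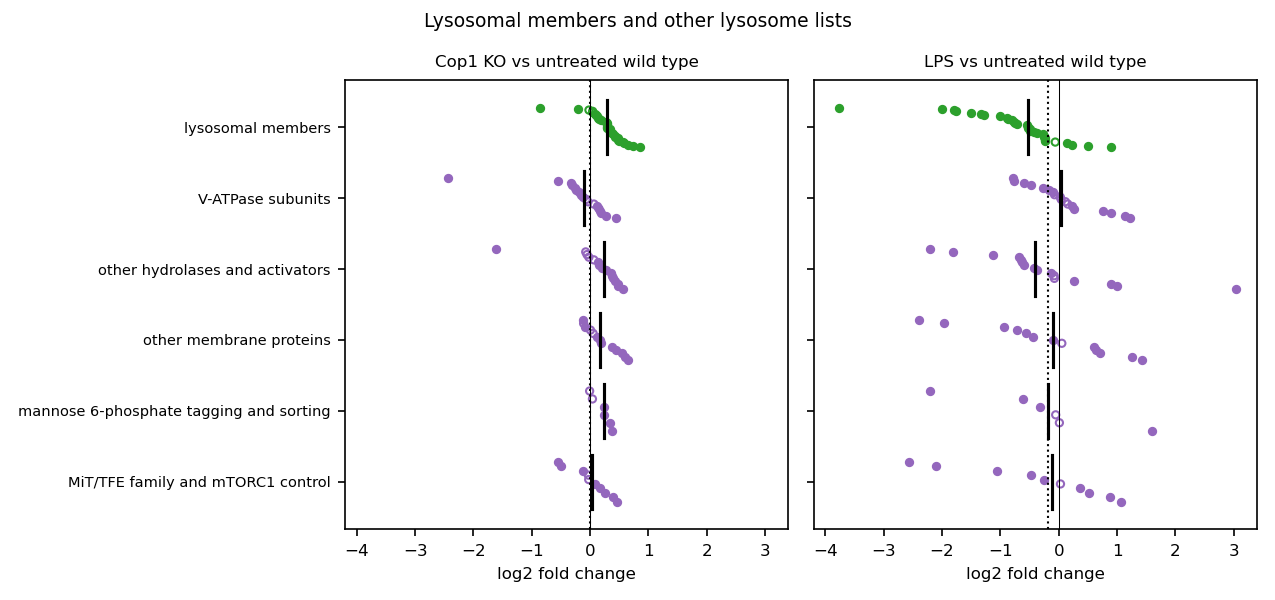
Log2 fold change (horizontal axis) of each of the 32 genes (green) and of each gene in the 5 other lysosomal lists (purple), for Cop1 KO and for LPS against untreated wild type, with a bar at each list's median, open points not called and a dotted line at the median of all genes. The list of other hydrolases has medians of 0.23 and −0.40, and the proton pump list −0.10 and 0.04.

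Markers of cell types moved with the groups. Shares of all genes tested were 28.1% higher and 30.3% lower in Cop1 KO, and 30.2% higher and 43.4% lower after LPS. The 12 microglia and macrophage markers, of which 2 also stand in the other lysosomal lists, gave 10 higher in Cop1 KO (median 0.45, none lower by edgeR's test and none with an unadjusted p below 0.05 in that direction) and 4 higher and 7 lower after LPS (median −0.43). Csf1r, the growth factor receptor of microglia, was at 2185 and 2190.2 CPM in wild type without treatment, 4060.0 and 4024 in Cop1 KO and 931 and 940.4 after LPS, with log2 fold changes of 0.89 (SE 0.02) and −1.23 (SE 0.03). Of the 11 astrocyte markers, 10 were lower and 1 higher in Cop1 KO (median −3.96). After LPS 5 were higher and 1 lower (median 0.12). Scaling by library size alone turned this split to 2 higher and 8 lower, and it also moved without untreated wild type library 1. Gfap, the astrocyte filament gene, was at 314 and 314 CPM in wild type without treatment, 6.26 and 5.47 in Cop1 KO and 343 and 338 after LPS.

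Among neuron markers, 8 of 9 tested were lower in Cop1 KO (summed level 77.5 to 79.1 CPM in untreated wild type, 6.26 to 7.20 in Cop1 KO and 85.4 to 85.8 after LPS), and Nefl was at 0 in both knockout libraries. After LPS 2 neuron markers were higher and 2 lower. Of 8 oligodendrocyte lineage markers tested, 6 were lower and 1 higher in Cop1 KO, and 4 were lower and 1 higher after LPS. Their sum was 232.9 to 237.9, 131.9 to 133.2 and 153.8 to 162.7 CPM, with Mog at 0 in both knockout libraries and LPS library 1. The lowest count of this list was only 2 and 3 in the untreated wild-type libraries. Mbp, which encodes a myelin protein, was higher in Cop1 KO (log2 fold change 0.53, SE 0.05, adjusted p = 6.7e-13) and lower after LPS (−1.96, SE 0.08). All 5 markers of dividing cells were lower in both (260.3 to 270.7, 62.5 to 67.1 and 51.4 to 53.8 CPM). Of 5 endothelial and mural markers tested, 3 were higher and 1 lower in Cop1 KO (median 0.87), and 4 were higher and 1 lower after LPS (median 1.45). Their sum was 154.3 to 154.7, 165.5 to 167.7 and 199.0 to 202.1 CPM, with Vwf, the gene lower in both, at 104 and 103 CPM in untreated wild type, 67.8 and 70.8 in Cop1 KO and 48.9 and 44.4 after LPS, and Cldn5 at 0 in every library. Of 7 fibroblast markers tested, 5 were higher and 1 lower in Cop1 KO (median 1.26), and 4 were higher and 1 lower after LPS (median 0.57). Their sum went the other way, at 1033 to 1046, 829.0 to 829.3 and 920.3 to 926 CPM, most of it Fn1, the gene lower in both, at 964 and 979 CPM in untreated wild type, 689.6 and 693 in Cop1 KO and 769 and 774 after LPS. The part of these differences in the values of the 32 genes and of the other lysosomal lists was not tested.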

How the data were processed

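PolyA RNA of 6 libraries (TruSeq RNA v2, a kit that does not mark strand; single-end 50 bp reads) was measured in 3 groups of 2, with groups taken from the treatment labels. Reads were aligned with GSNAP to GRCm38, per the submitters' processing notes, with no annotation named. The deposited counts are reads that align uniquely to a gene model, per the file headers, and the deposited nRPKM values are RPKM to which the authors applied a size factor, as the headers state; how that factor was made is not given in the sources used here. Gene IDs were named through RefSeq (31049 of 36528 matched; unnamed IDs held 1.075 to 1.307% of counts).

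Counts were analysed with edgeR 4.0.16 in R 4.3.3: genes kept by filterByExpr, TMM factors (1.192 and 1.190 in untreated wild type, 1.042 in both Cop1 KO and 0.806 in both LPS libraries), all 6 libraries in 1 quasi-likelihood fit with 3 residual degrees of freedom, and Benjamini-Hochberg adjustment over 15585 genes. The common biological coefficient of variation was 2.7%, and the 2 libraries of a group differed beyond counting noise (chi-square over its degrees of freedom 1.579, 1.947 and 2.472). Each was kept as a sample, although this spread may be technical and does not show that they are separate cultures or animals. Alternatives were median-of-ratios factors, library size only, no filter (23354 genes), DESeq2 1.42.0, only the 2 groups compared, limma 3.58.1 on log2(nRPKM + 1) and log2(nRPKM + 0.1), and leaving out each library. The script was tested on simulated data. The 32 genes and all other lists were chosen with earlier results of these data known. From the other lists, named genes were taken from up to 3 per list and direction with the largest called change at a mean of at least 5 CPM, and from marker lists the highest. Promoters and coordinates are RefSeq's for GRCm38.p6. Exon overlap exceeded 20% in 2 of the 32 genes. Some genes of the other lists are counted but not reported here by name.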

Additional observations from a re-analysis of the deposited data

How the results depend on the processing

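The median of the 32 genes minus that of all genes kept its sign in each of the 13 alternatives. It was 0.30 to 0.35 in Cop1 KO, −0.39 to −0.32 after LPS and 0.73 to 0.81 for Cop1 KO against LPS. A change of library scaling shifts both medians about alike, so this difference is no test of the scaling. Calls near 0 did move with the scaling. In Cop1 KO against untreated wild type, 8 genes were lower with library size only and 1 with median-of-ratios factors, DESeq2 or limma with either pseudocount; leaving out 1 library gave 1 to 2, with 1 without untreated wild type library 1. The median was 0.10 with library size only and 0.42 with limma at both pseudocounts, and the genes changed by at least 1.5-fold numbered 2 with library size only and 8 and 9 with limma at pseudocounts of 1 and 0.1. After LPS the median was −0.39 with median-of-ratios factors, DESeq2 and only the 2 groups compared, −0.37 with limma at both pseudocounts and −1.10 with library size only, where 1 gene was higher and 28 changed by at least 1.5-fold. For Cop1 KO against LPS, the genes called lower numbered 2 with median-of-ratios factors, 1 with DESeq2, and 0 to 1 when 1 library was left out (1 without either LPS library); the median was 1.15 with library size only.

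With library size only, these signs turned in Cop1 KO: Npc1 (−0.149), Gla (−0.040), Galc (−0.110), Asah1 (−0.005), Psap (−0.059), Ids (−0.074), Lipa (−0.145), Tpp1 (−0.086), Slc17a5 (−0.067), Sort1 (−0.153) and Mitf (−0.026). After LPS they turned for Lamp2 (−0.056), Ids (−0.426), Grn (−0.339) and Gfap (−0.447), and for Cop1 KO against LPS for Lamp2 (0.338), Ids (0.352), Npc2 (0.339) and Fn1 (0.212). With limma at pseudocounts of 1 and 0.1, Arsb turned in Cop1 KO (0.108 and 0.110) and Mcoln1 after LPS (0.099 and 0.103). The library-size values differ by construction, since TMM factors are left out. The limma values also carry another scaling, the authors' size factor in place of TMM. Between libraries, the ratio of nRPKM to count was the same for every gene. How far this scaling alone turned Arsb and Mcoln1 was not tested. The falls of Tfe3 and Ppt1 after LPS were not called by DESeq2 or limma. No paired analysis was possible because the labels give no replicate numbers. With 2 libraries a group, p-values rest on a spread of each gene that is pooled over the groups and drawn toward that of other genes.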
